A study of Aedes aegypti with 6 samples.

Results

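The genes described here were clearly dimmer in pupal testes of the meiotic drive strain T37 than in those of the non-driving strain RED of the yellow fever mosquito, Aedes aegypti. They were chosen from the measured values themselves. For each gene, the highest of the 3 T37 arrays was subtracted from the lowest of the 3 RED arrays on the log2 scale, and genes with a difference of at least 1, here called the gap, and a lowest RED value of at least 8 were kept. A gap of 1 means that the dimmest RED array was at least 2-fold brighter than the brightest T37 array. The 2 genes with the widest gaps, AAEL002331 and AAEL005063, were set aside, which left 131 of 12813 genes, or 1.02%. Because all 6 arrays took part in this choice, the strain difference of these genes is given as a description with no test.

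A chromosome that shows meiotic drive enters more of the functional gametes than its homologue does. The driver known from this mosquito sits close to the locus that determines maleness, acts in the testis during spermatogenesis, and makes carrier males father an excess of sons. Early pupal testes hold germ cells on their way through meiosis together with somatic cells of the gonad, so a transcript measured there can come from any of these cells.

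Total RNA from testes of early pupal T37 males and early pupal RED males was labelled with Cy3 and hybridised to one-colour NimbleGen arrays, with 3 separately extracted samples of each strain. The labels give the same rearing temperature, humidity and light cycle for both strains. Titles, source names and strain labels agree on the strain of every sample, although the free text given for each RED sample calls it a T37 replicate as well. Each strain is a single line, so the drive and any other genetic difference between T37 and RED cannot be told apart, and how many males went into an extract was not stated in the labels.

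The deposited table names genes by AAEL identifiers alone. None of them (0 of 12813) was found in the reference table used here, which lists 19623 genes under other identifiers, so neither gene names, roles, positions nor sequences are given, and the testis could not be checked against marker genes. Array medians lay close together, from 1887 to 1967 on the T37 arrays and from 1836 to 1985 on the RED arrays. Across all genes, log2 intensities of RED replicate 3 correlated with RED replicates 1 and 2 at r = 0.874 and 0.891, below the 0.974 between those arrays. With the T37 arrays RED replicate 3 correlated at 0.889 to 0.908, so across all genes it was no closer to its own strain. Why this array stood apart was not tested. In T37, replicate 3 correlated with replicates 1 and 2 at 0.948 and 0.958, below the 0.983 between those arrays. With RED replicates 1 and 2, T37 replicate 3 correlated at 0.938 each, slightly below its values within T37. Genes are not independent replicates, and these values only describe the arrays.

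The 131 genes were 2.35-fold to 18.4-fold lower in T37 by strain means, with a median of 3.88-fold and quartiles of 3.10-fold and 4.92-fold. On the log2 scale the median difference, T37 minus RED, was -1.95, beside a median of -0.01 over all 12813 genes. In these bulk samples, fewer cells of a type and less RNA per cell cannot be told apart. At least a 4-fold difference of means was found in 61 of the genes, an 8-fold difference in 12, and a 16-fold difference in 1.

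The gaps were mostly small beside the largest. They ran from 1.002 to 3.53, with a median of 1.29 and an upper quartile of 1.73. A gap under 1.25 was found in 53 genes, one from 1.25 to under 1.5 in 25, one from 1.5 to under 2 in 37 and one from 2 to under 3 in 13. The 3 genes with a gap above 3, AAEL001692, AAEL004599 and AAEL009745, stood apart from the rest, since the next gap was 2.72. Over all genes the median gap was -0.64, which means that the strains' arrays usually overlapped. Every RED array lay above every T37 array in 13.4% of all genes, and by a gap of at least 1 in 1.08%.

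**Figure D1:**
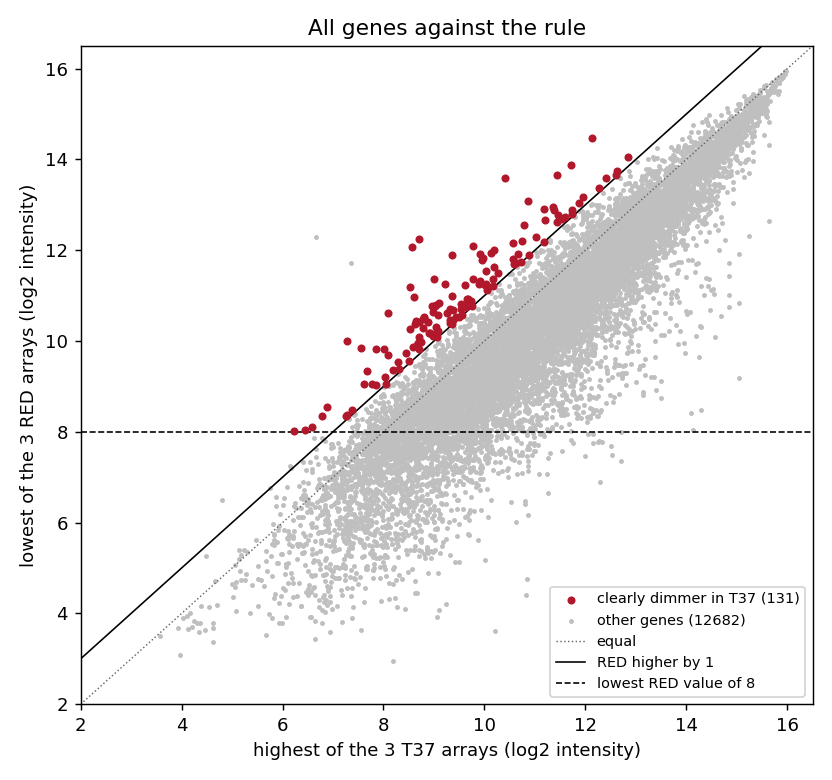
Every gene is a point, with the highest of its 3 T37 arrays on the x axis and the lowest of its 3 RED arrays on the y axis, both as log2 intensity. The 131 genes in red lie on or above the solid line, where RED is higher by 1, and on or above the dashed line at a RED value of 8, and the 2 grey points far above the solid line at a T37 value between 6 and 8 are the genes set aside.

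AAEL001692 had the widest gap, 3.53, and also the largest difference of means. Its log2 intensity was 8.11, 8.50 and 8.71 on T37 replicates 1, 2 and 3, against 13.14, 12.54 and 12.25 on RED replicates 1, 2 and 3. On the deposited linear scale this was 275, 362 and 419 in T37, against 9040, 5967 and 4854 in RED. The T37 values lay at percentiles 14.3 to 18.6 of their arrays and the RED values at percentiles 71.1 to 84.4, so the gene was among the dimmer ones in T37 and among the brighter ones in RED. The means differed 18.4-fold.

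AAEL004599 followed with a gap of 3.51 and was evenly low in T37. It stood at 8.42, 8.32 and 8.57 on the T37 arrays, against 12.08, 12.67 and 12.46 on the RED arrays. The intensities were 341, 319 and 380 in T37, against 4327, 6534 and 5654 in RED, and the means differed 15.7-fold. The lowest RED array was thus 11.4 times as bright as the highest T37 array.

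AAEL009745 was a brighter gene in both strains. Its values were 10.41, 10.31 and 9.99 in T37, against 13.79, 14.02 and 13.58 in RED, with a gap of 3.17 and an 11.8-fold difference of means. In T37 it lay at percentiles 37.4 to 43.4, near the middle of the arrays, and in RED at percentiles 88.9 to 93.0. It was therefore still well above the dimmest genes in T37.

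AAEL002482 reached lower in T37 than any other of the 10 genes with the largest gaps. It stood at 6.41, 7.02 and 7.28 in T37, against 10.80, 10.003 and 10.86 in RED, and its gap was 2.72. The linear values were 85.2, 130 and 156 in T37, against 1779, 1026 and 1857 in RED. With T37 percentiles of 2.7 to 5.1 it sat at the dark end of those arrays, where a low intensity cannot be told from background. This limits its 12.5-fold difference. With the dimmest 5% of each array set to that array's 5th percentile, its difference was -3.44 in place of -3.65 on the log2 scale.

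AAEL002547 and AAEL003337 had gaps of 2.66 and 2.55. AAEL002547 was tight in T37, at 8.32, 8.30 and 8.53, against 11.19, 11.58 and 11.63 in RED. AAEL003337 stood at 8.75, 8.62 and 9.35 in T37, against 11.90, 12.44 and 11.91 in RED. In both genes T37 replicate 3 was the highest T37 array, and the RED arrays lay above the median of their array.

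AAEL013162, AAEL014757 and AAEL013841 lay near the middle of the RED arrays and under percentile 25 of the T37 arrays. AAEL013162 stood at 7.91, 7.73 and 8.10 in T37, against 11.11, 11.53 and 10.61 in RED. AAEL014757 stood at 7.73, 7.99 and 8.60 in T37, against 11.16, 11.36 and 10.97 in RED. AAEL013841 stood at 9.01, 8.93 and 8.23 in T37, against 11.38, 11.42 and 11.54 in RED. Their gaps were 2.51, 2.37 and 2.37, and their means differed 9.003-fold, 8.32-fold and 6.60-fold. T37 replicate 3 was the highest T37 array for the first 2 of these genes and the lowest for AAEL013841.

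**Figure D2:**
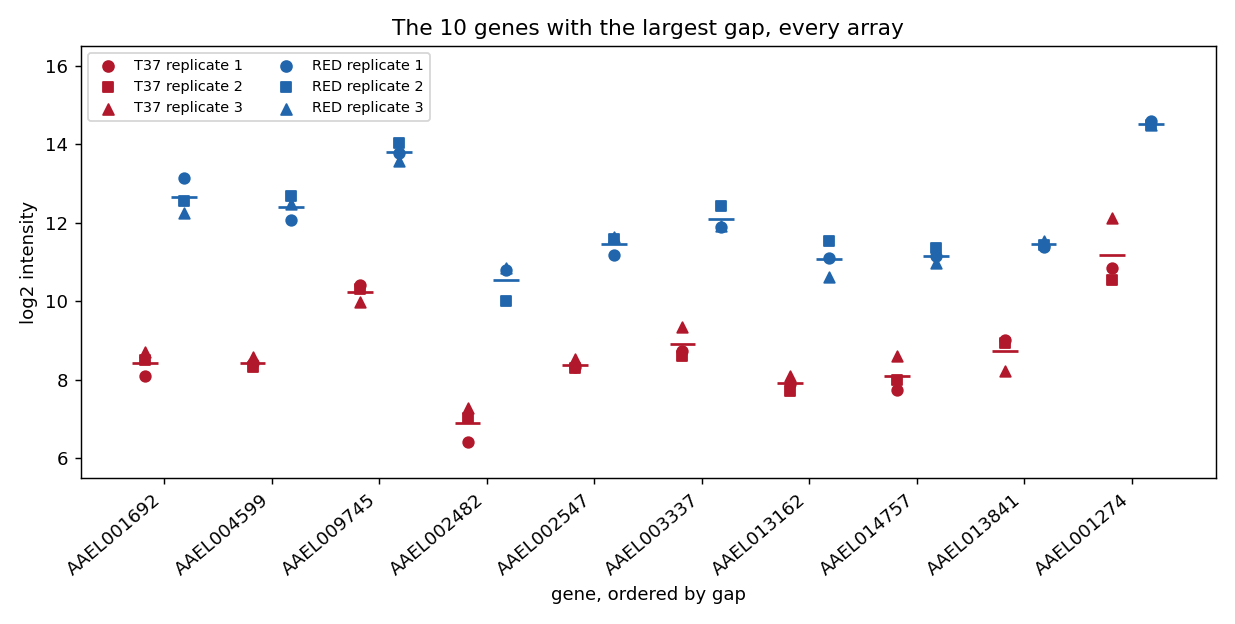
Log2 intensity (y axis) of the 10 genes with the largest gaps (x axis) on each array, with T37 in red on the left of each gene, RED in blue on the right, one symbol shape per replicate number, and a bar for the mean of 3 arrays. No strain pair overlaps, and the spread within T37 is widest in AAEL001274, where T37 replicate 3 stands at 12.13.

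The brightest of the genes in RED were AAEL001274, AAEL007381 and AAEL011305, by the lowest RED array. AAEL001274 stood at 10.86, 10.54 and 12.13 in T37, against 14.58, 14.49 and 14.48 in RED, where it lay at percentiles 96.1 to 96.6. AAEL011305 had 10.77, 10.43 and 11.71 in T37, against 14.52, 14.41 and 13.88 in RED. In both, T37 replicate 3 was more than 1 log2 unit above the mean of T37 replicates 1 and 2, while RED replicates 1 and 2 lay close together. AAEL007381 had 12.19, 12.53 and 12.84 in T37, against 14.45, 14.06 and 14.74 in RED, the highest T37 level among the 131 genes. It remained at percentiles 70.0 to 80.0 of the T37 arrays, so a gene can be clearly dimmer in T37 by this rule and still bright there.

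AAEL010200 was bright and very even within strains. It stood at 11.36, 11.43 and 11.35 in T37, against 13.65, 13.97 and 13.68 in RED, a gap of 2.22 and a 5.24-fold difference. Its T37 values lay at percentiles 57.4 to 58.1 and its RED values at percentiles 89.9 to 92.5, and the SD of each strain was small beside the difference of -2.39.

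The dimmest of the genes in RED were AAEL014328 and AAEL012992. AAEL014328 stood at 4.85, 6.22 and 5.37 in T37, against 8.08, 8.01 and 8.38 in RED. In T37 it was at percentiles 0.3 to 2.3, so its 6.38-fold difference rests on the darkest values of those arrays. When the dimmest 5% of each array were set to that array's 5th percentile, its difference was -1.04 in place of -2.67 on the log2 scale, and after cyclic loess it was no longer called (limma adjusted p = 0.0566). AAEL012992 stood at 6.24, 6.44 and 6.23 in T37, against 8.03, 8.13 and 8.11 in RED, with an SD of 0.12 in T37 and 0.05 in RED (n = 3 each). It too lay at the darkest T37 values, at percentiles 1.1 to 2.8, where intensity cannot be told from background. With dim values raised its difference was -0.98 in place of -1.79 on the log2 scale.

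As a group, the 131 genes were below the middle of the T37 arrays and slightly above it on the RED arrays. Their median percentile was 26.7, 25.1 and 23.8 on T37 replicates 1, 2 and 3, against 53.1, 56.8 and 56.8 on RED replicates 1, 2 and 3. The median linear intensity of the genes was 581, 552 and 539 on the T37 arrays, against 2032, 2436 and 2568 on the RED arrays. Percentiles within an array do not depend on the scale of that array. The genes were chosen for RED values above their T37 values, so this shift follows from the choice and is no separate evidence.

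The genes lay under percentile 5 of every T37 array in 5 of 131 cases (3.82%), close to the 3.22% of all genes. On all T37 arrays, 54 (41.2%) were under the 25th percentile, beside 19.8% of all genes, and 14 (10.7%) were above the median, beside 44.8%. On all RED arrays, 66 (50.4%) were above the median, beside 42.5% of all genes, and 38 (29.0%) were under it, beside 42.3%. A position under the median on every T37 array and above it on every RED array was found in 43 of the genes (32.8%) and in 123 of all 12813 genes (0.96%). The rule favours such genes, so these shares describe the choice.

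Genes of middle level in RED were chosen most often. At a mean RED level of 10 to 11 the rule took 38 of 2054 genes (1.85%) and at 11 to 12 it took 36 of 2013 (1.79%). At 12 to 13 it took 23 of 1752 (1.31%), at 13 and above 15 of 2240 (0.67%), and at 8 to 10 it took 19 of 3501 (0.543%). Over all levels, the RED level of 8 kept out 6 genes with a gap of at least 1. Why the shares differed between classes was not tested. Within the genes the median T37 minus RED was -2.008, -1.89, -2.11, -1.89 and -2.20 from the dimmest class to the brightest, with no steady change. The rule sets the same smallest gap at every level, which holds these medians together, so they describe the choice. Over all genes the median differences in these classes ran from -0.06 to 0.06.

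**Figure D3:**
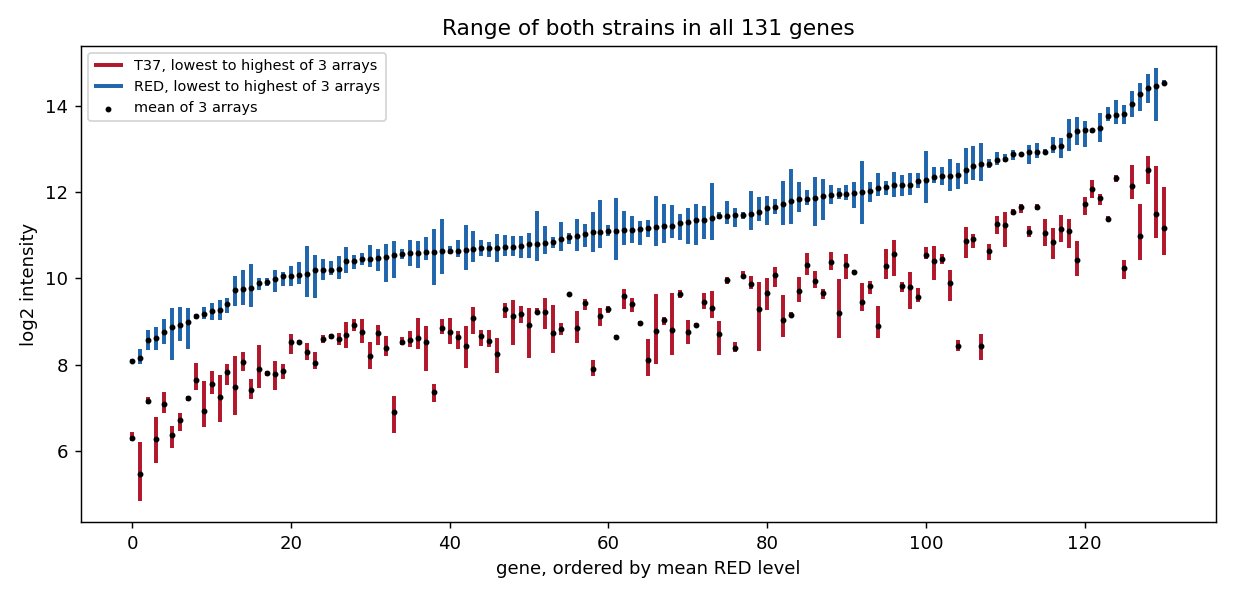
The 131 genes are ordered by mean RED level (x axis), and vertical lines run from the lowest to the highest of 3 arrays as log2 intensity (y axis), in red for T37 and in blue for RED, with dots for the means. The blue lines climb from a mean of 8.09 to one of 14.52, and the red lines lie below them by a distance that shows no steady change with level.

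Replicates of a strain were slightly closer together in these genes than in all genes. The median SD between arrays (n = 3) was 0.23 in T37 and 0.29 in RED for the 131 genes, beside 0.26 in T37 and 0.35 in RED for all genes. The largest SD among the 131 was 0.95 in T37 and 0.73 in RED. A gap between all arrays favours genes with a small spread.

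The gaps rested on different arrays in different genes. T37 replicate 3 was the highest T37 array, and so set the gap, in 55 of the genes (42.0%), and T37 replicates 1 and 2 did so in 37 and 39. T37 replicate 3 was also the lowest T37 array in 55 genes. Over all genes it was the highest in 38.2% and the lowest in 47.8%. In RED, replicate 1 was the lowest array in 62 of the genes (47.3%), replicate 3 in 42 (32.1%) and replicate 2 in 27 (20.6%), whereas over all genes replicate 3 was the lowest most often (42.5%) and replicate 1 was so in 31.3%. These shares were not tested, and the choice of genes with high values on all 3 RED arrays bears on them.

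RED replicate 3, the array that stood apart across all genes, lay near the other RED arrays in most of these genes. Its difference from the mean of RED replicates 1 and 2 had a median of 0.05 and quartiles of -0.25 and 0.35, beside quartiles of -0.48 and 0.43 over all genes. The rule asks for a high value on RED replicate 3 too, so genes in which that array fell away were left out by the choice. The 3 genes in which it was furthest above were AAEL010602, AAEL005348 and AAEL006811. AAEL010602 stood at 9.09, 9.71 and 9.13 in T37, against 11.09, 10.88 and 12.21 in RED. In all 3 genes RED replicates 1 and 2 were above the T37 arrays by at least 1.04, which follows from the gap of 1 that the rule requires. For AAEL005348 this held for the average of its rows but not for transcript RB. That transcript stood at 8.35 on RED replicate 1 and 8.48 on T37 replicate 1.

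The 3 genes in which RED replicate 3 was furthest below were AAEL009966, AAEL014245 and AAEL004331. AAEL009966 stood at 10.96, 10.94 and 12.60 in T37, against 14.88, 14.84 and 13.65 in RED, so that replicate 3 of both strains stood nearer to the other strain than replicates 1 and 2 did. Between replicates 1 and 2 of the strains this gene differed by more than 3 log2 units, yet its gap was 1.05. Without replicate 3 of both strains its difference was -3.91, in place of -2.96 on all arrays. AAEL004331 stood at 8.70, 8.61 and 8.62 in T37, against 11.03, 11.85 and 10.43 in RED. AAEL014245 stood at 6.08, 6.42 and 6.59 in T37, against 9.31, 9.17 and 8.11 in RED, and with dim values raised its difference was -1.75 in place of -2.50. In all 3 the gap was set by RED replicate 3, and without that array it would have been wider.

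**Figure D4:**
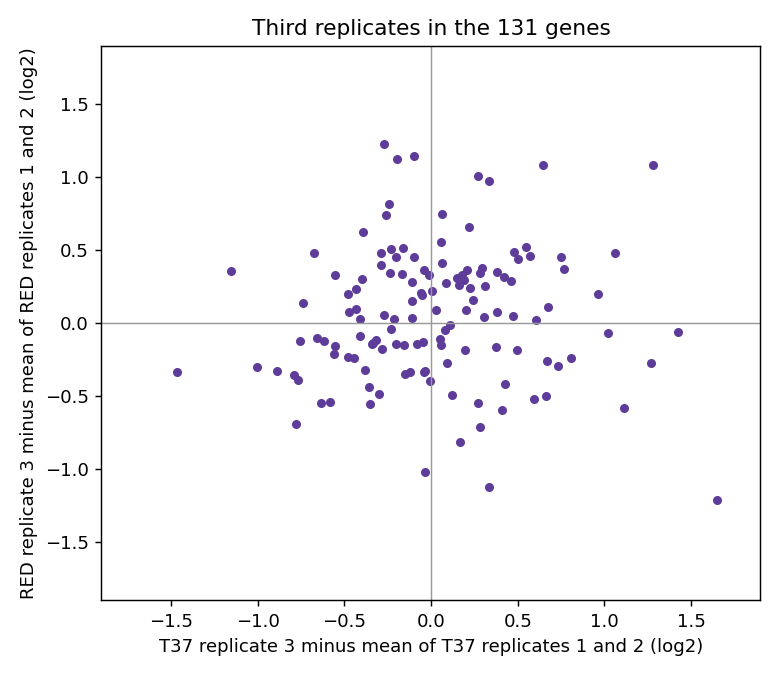
Each of the 131 genes is a point, placed by the log2 difference of T37 replicate 3 from the mean of T37 replicates 1 and 2 (x axis) and of RED replicate 3 from the mean of RED replicates 1 and 2 (y axis). Most points lie near the centre, and AAEL009966, at 1.65 and -1.21, is the point at the lower right.

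The choice was repeated with each array left out, and the array left out was then read, so that it had no part in choosing the genes. Without T37 replicate 1, 150 genes met the rule, and on T37 replicate 1 itself 149 of them (99.3%) were under all 3 RED arrays. The same held for 152 of 152 genes with T37 replicate 2 left out and for 206 of 229 (90.0%) with T37 replicate 3 left out. Over all genes, a T37 array lay under all 3 RED arrays in 24.6% to 27.7%. For RED, 170 of 174 genes (97.7%) chosen without replicate 1 had it above all T37 arrays, as had 177 of 186 (95.2%) for replicate 2 and 189 of 221 (85.5%) for replicate 3, beside 32.7% to 36.8% of all genes. The strain order thus held on the array left out in most of the chosen genes for all 6 arrays, and least often on RED replicate 3 and T37 replicate 3. That array was read against arrays of the other strain that had taken part in the choice. The choice thus favours a high share, and the shares over all genes, which were not chosen, are no like baseline.

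The full gap of 1 held less often than the order. It was kept on the array left out in 87.3% of the genes for T37 replicate 1, 86.2% for T37 replicate 2 and 57.2% for T37 replicate 3, and in 75.3%, 70.4% and 59.7% for RED replicates 1, 2 and 3. Over all genes such a distance was found in 2.30% to 6.01%. Put the other way, T37 replicate 3 alone kept 98 further genes from meeting the rule and RED replicate 3 alone kept out 90. T37 replicates 1 and 2 alone kept out 19 and 21, and RED replicates 1 and 2 alone kept out 43 and 55. In 23 genes chosen without T37 replicate 3 that array was not below all RED arrays, and in 32 genes chosen without RED replicate 3 that array was not above all T37 arrays.

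**Figure D5:**
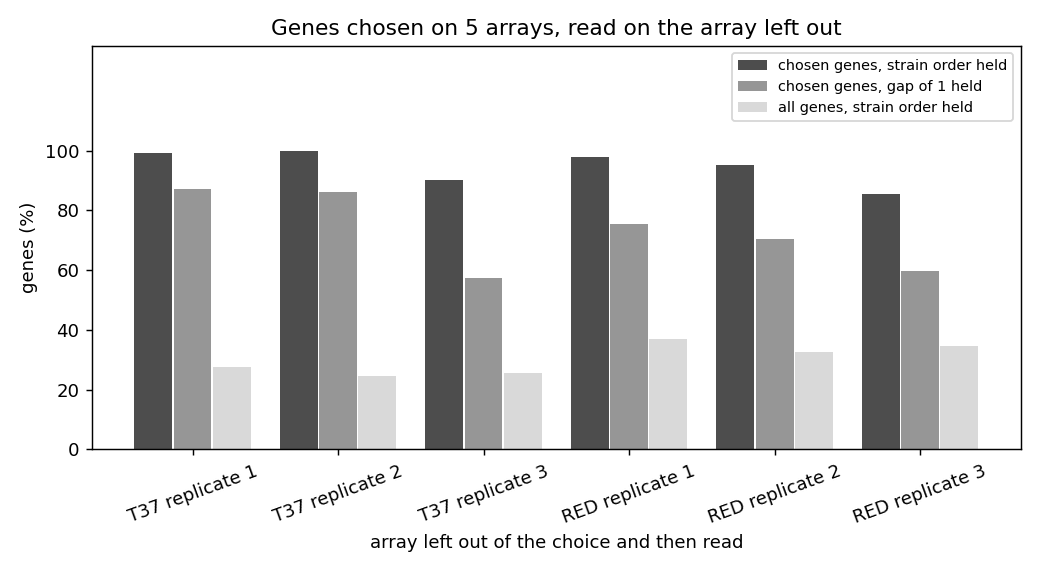
For each array (x axis), genes were chosen by the same rule on the other 5 arrays and then read on the array left out, and bars give the percentage of genes (y axis). Dark bars, for chosen genes in the strain order, run from 85.5% to 100%, middle bars, for chosen genes with a gap of 1, from 57.2% to 87.3%, and light bars, for all genes in the strain order, from 24.6% to 36.8%.

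The same rule turned round, for genes clearly brighter in T37, took 163 genes, beside 133 dimmer ones when the 2 genes set aside are counted. For the brighter genes chosen without RED replicate 3, 91.3% had that array in the strain order, beside 85.5% of the dimmer ones. The shares were 98.3% beside 90.0% for T37 replicate 3, and 98.9% beside 99.3% for T37 replicate 1. They were 100% beside 97.7% for RED replicate 1, 100% beside 95.2% for RED replicate 2, and 100% in both for T37 replicate 2. The differences between these shares were not tested.

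In a limma fit over all genes, 128 of the 131 genes were called lower in T37 at a Benjamini-Hochberg adjusted p under 0.05, beside 2.09% of all genes called lower and 4.53% called in either direction. The fit used the contrast that chose the genes, so nothing is read from this count. The 3 genes not called were AAEL002880, AAEL005348 and AAEL013059, of which AAEL002880 and AAEL013059 were named after their values were seen. AAEL002880 was spread within both strains, at 8.03, 8.67 and 9.63 in T37, against 10.92, 10.75 and 11.92 in RED. AAEL013059 stood at 9.51, 9.41 and 8.45 in T37, against 10.99, 10.67 and 10.52 in RED. Of the genes called lower, 138 were not among the 131 or the 2 set aside. In 132 of these the gap was under 1, and in 6 it was at least 1 but the lowest RED value was under 8.

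The number called varied with the array left out. With T37 replicate 1, 2 or 3 left out, 4, 3 and 91 of the 131 genes were called. With RED replicate 1, 2 or 3 left out, 44, 13 and 129 were called. The shares of all genes called lower in these fits were 0.0468%, 0.039%, 1.04%, 0.382%, 0.117% and 3.38%. AAEL004599 and AAEL009745 were called in all 6 of these fits, AAEL001692 and AAEL002547 in 5, and 94 of the genes in 2 or fewer. Without replicate 3 of both strains, all 131 were called, beside 18.8% of all genes.

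The edges of the rule cut through genes that were close in gap or in lowest RED value, though genes close in gap could differ in level. Just inside, AAEL003788 had a gap of 1.002, at 10.75, 10.89 and 10.05 in T37, against 12.10, 12.46 and 11.89 in RED. Just outside, AAEL008798 had a gap of 0.99, at 8.00, 8.19 and 8.28 in T37, against 9.28, 9.31 and 10.05 in RED. AAEL004897 and AAEL013640, with gaps of 1.01, were the next inside, and AAEL008675 and AAEL011622, with gaps of 0.99, the next outside. At the RED level of 8, AAEL008464 (lowest RED value 7.87, gap 1.10) and AAEL013417 (lowest RED value 7.86, gap 1.25) fell short.

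The rule asks for separation of all arrays and so passes over some large differences of means. Of the 12813 genes, 87 were at least 4-fold lower in T37 by strain means, and 61 of these were among the 131. Of the others, 2 were the genes set aside, 7 had overlapping arrays, 13 had a gap between 0 and 1, and 4 had a wider gap but a lowest RED value under 8.

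Most of the genes were measured by 1 transcript row. Of the 131, 4 had 2 rows each, beside 3.95% of all genes with several rows. In AAEL003781, the widest gap among these at 2.30, both rows differed alike: transcript RA differed by -2.63 and transcript RB by -2.76 between T37 and RED. Transcript RA of that gene stood at 9.47, 9.52 and 9.70 in T37, against 11.93, 12.23 and 12.42 in RED. Transcript RB stood at 9.43, 9.46 and 9.86 in T37, against 12.24, 12.33 and 12.46 in RED. The rows may share probes, so they are not independent measurements.

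In AAEL005348 the rows were unlike. Transcript RA stood at 9.95, 10.44 and 10.35 in T37, against 12.52, 12.21 and 13.03 in RED, a gap of 1.77. Transcript RB stood at 8.48, 8.19 and 7.98 in T37, against 8.35, 8.61 and 10.11 in RED, where the strains overlapped. The difference between T37 and RED was -2.34 for RA and -0.80 for RB, against -1.57 for their average. In AAEL003067 neither row alone reached the gap, with 0.87 for RA and 0.99 for RB, although their average did (1.02). In AAEL015086 the gap was 0.75 for RA and 1.27 for RB.

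Identifier numbers of the genes were spread over the whole series. In blocks of 2000 numbers, the rule took from 0.614% of the measured genes (numbers 1 to 2000) to 1.47% (numbers 14001 to 16000), with 10 to 22 genes in a block. One pair had consecutive numbers, AAEL014268 and AAEL014269, and 3 more pairs were 2 numbers apart. AAEL014268 stood at 8.44, 8.37 and 9.08 in T37, against 10.87, 10.23 and 10.66 in RED. AAEL014269 stood at 10.02, 10.19 and 9.47 in T37, against 12.36, 12.77 and 12.01 in RED. The arrays that were high within a strain differed between them: T37 replicate 3 was the highest T37 array for AAEL014268 and the lowest for AAEL014269.

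The pairs that were 2 numbers apart were AAEL007608 with AAEL007610, AAEL013160 with AAEL013162, and AAEL014757 with AAEL014759. The gene numbered between them was not among the 131 in any of these pairs. AAEL007609 differed by 0.12, AAEL013161 by -0.33 and AAEL014758 by -0.05 between T37 and RED, whereas their neighbours by number differed by -3.17 to -1.34. AAEL007953 and AAEL007957 were 4 numbers apart with 1 measured gene between them, AAEL007956, which was lower in T37 as well, at -1.30 with a gap of 0.79. AAEL007956 lay under the 5th percentile of every T37 array and of RED replicates 1 and 2, where intensity cannot be told from background. Other pairs up to 5 numbers apart were AAEL002394 with AAEL002397, AAEL002990 with AAEL002995, and AAEL003788 with AAEL003793. The genes numbered between these were not among the 131 and differed by -0.83 to 1.73. The deposited files do not show whether consecutive numbers mean neighbouring genes, so these values describe identifiers and not positions.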

How the data were processed

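RNA from pupal testes was measured on 6 one-colour arrays, 3 for T37 and 3 for RED. Per the submitters' processing notes the authors processed the arrays with RMA, and the deposited intensities, linear and 1 per transcript for each array, fill 13471 rows with values of 7.70 to 64205. Neither the RMA version nor the array design, annotation release or genome build was stated in these sources. RMA is meant to make array distributions alike, which would hide a change common to all transcripts of a strain. The dim ends still differed between arrays. The 5th percentile of log2 gene values was 6.94, 6.99 and 7.37 on T37 replicates 1, 2 and 3. On RED replicates 1, 2 and 3 it was 7.61, 7.45 and 6.47. Detection calls were not used here. Intensities were taken to log2 with no pseudocount, and rows of a gene, the identifier before the transcript suffix, were averaged. T37 was compared with RED in R 4.3.3 with limma 3.58.1 (eBayes after lmFit, two-sided, no covariate, no filter, Benjamini-Hochberg over 12813 genes), after a test on simulated data. A percentile is a gene's rank among all genes of its array. Differences are T37 minus RED, and gaps are the lowest RED value minus the highest T37 value. The number of arrays limits the precision. The members, the lists and the alternatives were chosen with earlier results of these data known. Named genes are those with the 10 largest gaps, the brightest and dimmest in RED, the brightest in T37 among the 50 largest gaps, those at the rule's edges, those with several rows, those with consecutive numbers, and those with RED replicate 3 furthest above or below the other RED arrays; genes close by number and 2 of the genes not called were added after their values were seen. No gene list or marker list was tested, since the identifiers have no names here.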

Additional observations from a re-analysis of the deposited data

How the results depend on the processing

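The 131 genes numbered 126 to 139 under quantile normalisation, cyclic loess, median centring, raised dim values (under the 5th percentile of an array) and use of the brightest row, and 111 of them (84.7%), the 10 largest gaps among them, met the rule under all 5. Leaving out 1 array gave 150 to 229 genes, all 131 among them by construction. A gap of 0.8 gave 202 genes and a gap of 1.5 gave 53. Without replicate 3 of both strains 941 genes met the rule, and its limit of the 300 largest gaps kept 73 of the 131. Of the 131, 3 to 129 were called lower with 1 array left out, while over all genes 10 to 957 were called in either direction, beside 580 on all arrays. The fits with an array left out have fewer degrees of freedom, and why the count is lowest without T37 replicates 1 and 2 was not tested. Without replicate 3 of both strains 4221 genes were called and with array weights 3841, and all 131 were called in both, with the cause not tested. A limma fit with a replicate block called 0 of the 131 and 0 of all genes, with adjusted p of 0.0772 to 0.167 for the 131. In that fit all 131 had an unadjusted p under 0.05. So had 2467 of all 12813 genes in either direction, 1179 of them lower in T37. The rule used the same contrast, so nothing is read from the count among the 131. Arrays of the same number, each less its strain mean, correlated at -0.25, -0.16 and -0.17 over all genes. Each array had its highest such correlation with another number. These were 0.42, 0.37 and 0.46, for T37 replicates 1, 2 and 3 with RED replicates 2, 3 and 1. Values less a strain mean are tied to each other within a strain, so these correlations cannot settle whether the numbers pair the arrays. Low intensities cannot be told from background, which limits the folds of the dimmest genes.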
